A study of Mus musculus with 34 samples.

Results

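The Slc25 genes encode the mitochondrial carriers, proteins of the inner mitochondrial membrane that move metabolites between the matrix and the cytosol. Members were taken as the array probes whose listed gene name starts with Slc25a, leaving out Slc25a20, Slc25a17 and Slc25a15, and a probe was kept when, in 1 group or more, all arrays flagged its spot as well above background. The name matched 50 probes for 41 genes among 55681 probes, and 46 probes for 38 genes were kept. Of the kept genes, 30 had 1 probe and 8 had a pair of probes, and each gene was followed through its brightest probe. Slc25a2, Slc25a31 and Slc25a43 were not kept, as they were above background on 5, 1 and 0 of the 34 arrays. The members nearest to the threshold were Slc25a41, above background on 16 arrays and complete only in vehicle-treated KO mice, Slc25a18 on 26 arrays and Slc25a35 on 27 arrays.

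The study measured liver RNA of male mice, all labelled C57Bl/6J, aged 14 weeks on Agilent 1-colour arrays, 1 array for each mouse. Its 4 genotypes were wild type (WT), mice lacking Ppara in the whole body (KO), mice lacking Ppara in liver (LKO) and the control animals of the liver line (LWT). The sources used here do not give how Ppara was removed in the liver line. Mice received fenofibrate, a drug that activates the receptor PPARα, at 100 mg per kg per day or its vehicle, 3% gum arabic, by gavage each day for 10 days, and livers were taken at zeitgeber time 14, in the dark phase. The groups held 4 WT, 4 LWT, 4 LKO and 3 KO mice on vehicle, and 4 WT, 5 LWT, 5 LKO and 5 KO mice on fenofibrate.

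Mitochondrial carriers share a fold of repeated transmembrane segments and mostly work as exchangers, taking one substrate in for another out. In liver they connect matrix pathways such as fatty acid oxidation, the urea cycle and respiration with gluconeogenesis, lipid synthesis and redox balance in the cytosol. PPARα is a nuclear receptor that binds DNA with RXR at repeats of AGGTCA and governs many genes of fatty acid use in hepatocytes.

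All levels below are log2 spot intensities minus the 75th percentile of their array, so a level of 0 is that percentile, and levels of different probes are not compared. The brightest Ppara probe, the targeted gene, averaged 7.02 ± 0.20 (SD, n = 4) in WT, 7.03 ± 0.23 (SD, n = 4) in LWT, 6.11 ± 0.09 (SD, n = 4) in LKO and 5.34 ± 0.27 (SD, n = 3) in KO mice on vehicle. It was lower in both knockouts, with a difference of -0.91 ± 0.16 (SE, adjusted p = 0.000156) for LKO against LWT and -1.68 ± 0.17 (SE, adjusted p = 8.4e-09) for KO against WT mice. The probe stayed above background in both knockouts, and the sources used here do not say where it lies relative to the deleted part. The 6 hepatocyte markers found were above background on every array, with a mean level between 8.97 and 9.49. In bulk liver, fewer cells of a type and less RNA per cell cannot be told apart. The 3 arrays of slide 1, WT vehicle mouse 1, KO vehicle mouse 1 and KO fenofibrate mouse 1, were each the array that correlated least with the others of its own group, with mean r of 0.986, 0.979 and 0.985, while arrays of other slides had 0.983 to 0.994. Below, values without slide 1 are given for each member called in KO against WT mice on vehicle. For other comparisons they are given where the call of a named member ended or moved by over 1.5 times.

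Slc25a34, Slc25a30, Slc25a42, Slc25a10 and Slc25a13 were lower in both knockouts under both treatments, and the upstream bases of the first 4, which differed most on fenofibrate, are shown because PPARα sites are often sought in promoters. They are the 250 bases before the RefSeq transcript start in GRCm38.p6, read 5′ to 3′ along the gene, at chr4:141623835-141624084 on the minus strand for Slc25a34, chr14:75787038-75787287 on the minus strand for Slc25a30, chr8:70212282-70212531 on the minus strand for Slc25a42 and chr11:120491587-120491836 on the plus strand for Slc25a10. Capitals mark AGGTCA on either strand, where TGACCT is its reverse complement.
Slc25a34: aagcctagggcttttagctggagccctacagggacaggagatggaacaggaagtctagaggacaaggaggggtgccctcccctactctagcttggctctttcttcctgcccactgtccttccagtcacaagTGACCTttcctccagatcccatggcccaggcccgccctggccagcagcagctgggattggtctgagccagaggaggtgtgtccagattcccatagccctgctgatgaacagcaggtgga
Slc25a30: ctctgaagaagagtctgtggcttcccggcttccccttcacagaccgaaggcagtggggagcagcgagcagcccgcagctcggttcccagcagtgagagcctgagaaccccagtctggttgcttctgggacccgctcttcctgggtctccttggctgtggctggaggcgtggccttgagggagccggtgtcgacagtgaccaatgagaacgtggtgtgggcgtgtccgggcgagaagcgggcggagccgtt
Slc25a42: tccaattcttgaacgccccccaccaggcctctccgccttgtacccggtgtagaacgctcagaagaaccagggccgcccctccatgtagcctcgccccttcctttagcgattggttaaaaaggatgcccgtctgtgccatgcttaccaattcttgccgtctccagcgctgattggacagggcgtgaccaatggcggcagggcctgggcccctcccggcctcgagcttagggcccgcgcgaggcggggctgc
Slc25a10: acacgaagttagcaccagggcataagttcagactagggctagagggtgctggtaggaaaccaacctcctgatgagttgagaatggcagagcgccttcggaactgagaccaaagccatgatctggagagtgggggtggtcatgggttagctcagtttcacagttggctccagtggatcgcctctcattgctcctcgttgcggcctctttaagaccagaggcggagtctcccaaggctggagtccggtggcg
Of these, the Slc25a34 window held 1 match, at position -119 from the start, and the other windows held none. Promoters of 29 of the 38 members were in the table, and AGGTCA on either strand occurred in 4 of them (Slc25a34, Slc25a39, Slc25a45 and Slc25a47), against 15.8% of the 27025 genes of the table. A pair of AGGTCA in tandem with 1 base between them, searched on both strands, occurred in 0 members and in 0.041% of all genes, and the looser pair of AGGNCA in 0 members and 0.4% of all genes. A missing match says only that these letters are not in this window.

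Slc25a34, a carrier whose substrate is not settled, was between 13.1-fold and 33.2-fold lower in the Ppara knockouts than in their controls, the greatest difference among the members in all 4 such comparisons. Slc25a42, Slc25a10 and Slc25a32, carriers of coenzyme A, dicarboxylates and folate, rose on fenofibrate in both lines with intact Ppara, whereas Slc25a14 and Slc25a29 fell. Changes are fitted log2 differences ± SE from limma unless stated otherwise, and a gene is counted as called below when its adjusted p, Benjamini-Hochberg over 16075 genes in limma, was under 0.05. Over the 8 groups an F test called 25 members, against 60.5% of all genes. With all arrays, 27 of the 38 members were called in at least 1 comparison, and the same share over all genes was not counted. The 11 called in none included the citrate carrier Slc25a1, the glutathione carriers Slc25a39 and Slc25a40 and the pyrimidine nucleotide carriers Slc25a33 and Slc25a36. With all arrays, changes of those 11 ran from -0.59 (Slc25a18, KO against WT mice on vehicle) to 0.69 (Slc25a35, LKO against LWT mice on vehicle), both in probes near background, and the smallest adjusted p was 0.0857 for Slc25a33 in KO against WT mice on fenofibrate. Without slide 1, 3 of the 11 were called, and the share of all genes in that fit is not given here. Slc25a23, an ATP-Mg/phosphate carrier, then differed by -0.74 (adjusted p = 0.00202) between KO and WT mice on vehicle and in its fenofibrate effect by -0.81 (adjusted p = 0.0141), and on fenofibrate KO against WT gave -0.49 for Slc25a33 and -0.28 for Slc25a39 (adjusted p = 0.0321 and 0.0172).

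On fenofibrate, 7 members rose and 5 fell in WT mice, which is 31.6% of the members against 21.3% of all genes called (10.0% up and 11.3% down). In LWT mice 5 rose and 3 fell, 21.1% of the members against 17.8% of all genes (9.96% up and 7.83% down). The members called in both lines, which share no mice, were Slc25a42, Slc25a10, Slc25a32, Slc25a4 and Slc25a46 upward and Slc25a14, Slc25a29 and Slc25a45 downward, and none went opposite ways. The share of all genes called in both lines was not counted, so this overlap is not read as a trait of the members. Calls made in WT mice only included those of Slc25a34, Slc25a5 and Slc25a38, and the difference of the fenofibrate effect between WT and LWT mice called 0 members (3 at an unadjusted p under 0.05) and 0 of all genes. In LKO mice fenofibrate called 0 members (1 at an unadjusted p under 0.05) and 0 of all genes, and in KO mice 0 members (9 at an unadjusted p under 0.05) and 0.0124% of all genes. The median change of the members was 0.05 in WT, 0.05 in LWT, 0.00 in LKO and 0.07 in KO mice, beside 0.00, 0.00, 0.02 and -0.01 for all genes.

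**Figure D1:**
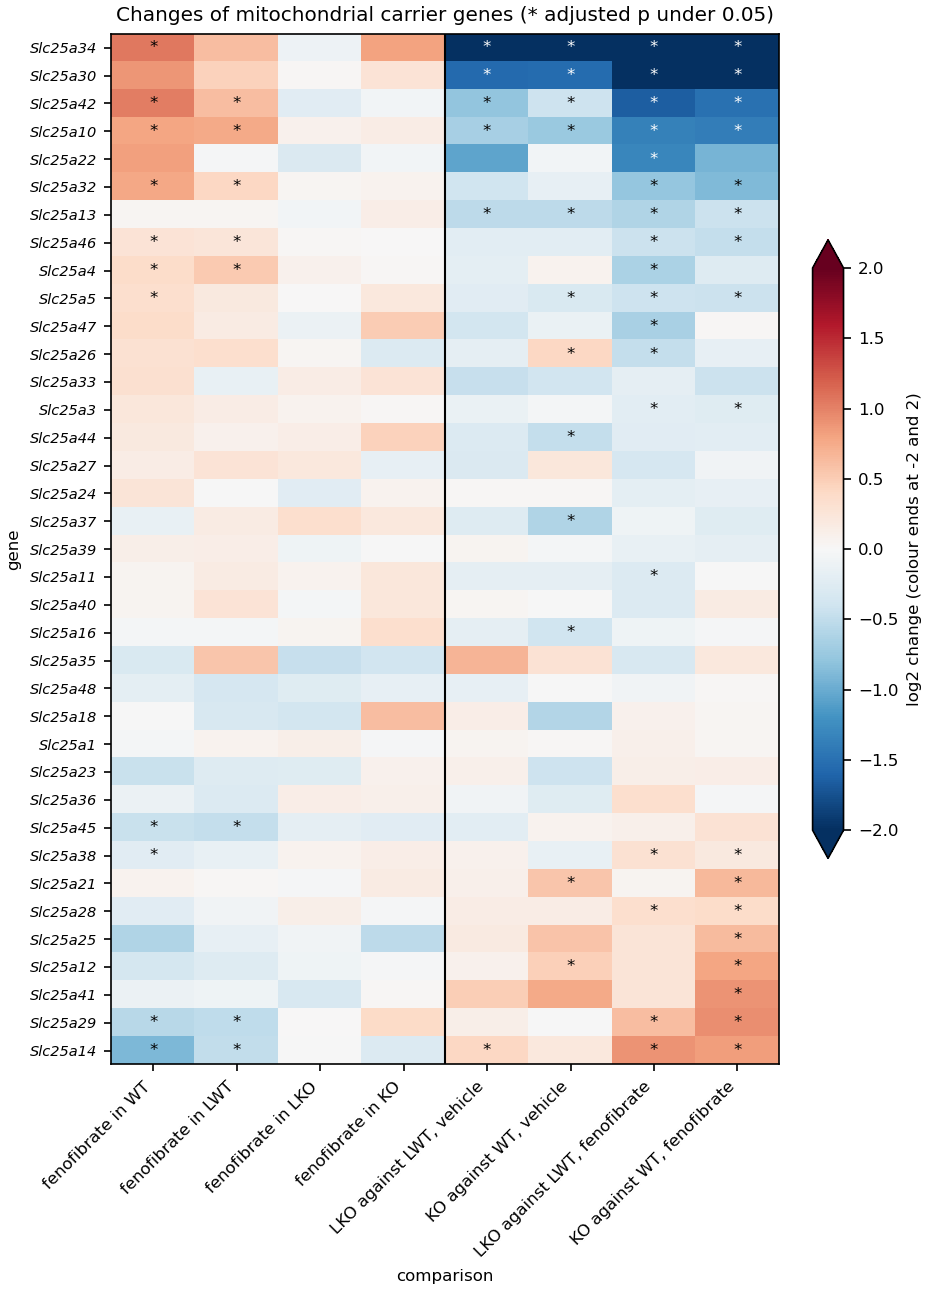
Log2 changes of the Slc25a members reported here, with genes down the side and 8 comparisons along the bottom, colour giving the change from -2 to 2 and a star an adjusted p under 0.05. Slc25a34 and Slc25a30 are lower in all 4 knockout comparisons, and no member is marked for fenofibrate in LKO or KO mice.

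On vehicle, LKO mice differed from LWT mice in 7 members, 2 higher and 5 lower, 18.4% against 6.07% of all genes (1.81% up and 4.26% down). In this comparison 12 members had all LKO mice below all LWT mice and 3 had them all above, beside 7.94% and 5.64% of all genes. KO mice differed from WT mice in 12 members on vehicle, 3 higher and 9 lower, 31.6% against 30.0% of all genes (13.9% up and 16.1% down). On fenofibrate, LKO differed from LWT mice in 19 of the 38 members, 5 higher and 14 lower, against 36.4% of all genes (18.2% up and 18.1% down). KO differed from WT mice on fenofibrate in 17 members, 8 higher and 9 lower, 44.7% against 43.1% of all genes (21.2% up and 21.9% down). Each knockout comparison shares its control mice with a fenofibrate comparison, so their values are given side by side and not as separate support. The median difference of the members was -0.17 for LKO and -0.05 for KO mice on vehicle and -0.19 and -0.02 on fenofibrate, beside -0.01, -0.03, 0.01 and 0.00 for all genes. WT and LWT mice on vehicle differed in 0 members (5 at an unadjusted p under 0.05), with 0.896% of all genes called. Within slides, all called members kept their sign in each slide that held both groups, apart from Slc25a16 and Slc25a42 in KO against WT mice on vehicle, where 1 slide held both groups. The KO against WT count on vehicle depended on the fit, and the shares of all genes called in the other fits are not given here. Fitted without the other groups, these KO and WT mice gave 3 called members. Same-numbered mice deviated together, and such a fit with the replicate number as a block called only Slc25a34 (-4.57, adjusted p = 0.00338) and Slc25a30 (-1.19, adjusted p = 0.0277). Among the smaller KO against WT calls on vehicle were -0.30 ± 0.10 for Slc25a5, -0.40 ± 0.15 for Slc25a16, 0.41 ± 0.14 for Slc25a26 and 0.47 ± 0.17 for Slc25a12 (adjusted p = 0.0164, 0.0366, 0.0269 and 0.0389), with overlapping groups. Leaving out 1 mouse in turn gave -0.38 to -0.17 for Slc25a5 (call lost in 2 of 7 fits), -0.52 to -0.28 for Slc25a16 (5 of 7), 0.10 to 0.60 for Slc25a26 (2 of 7, lowest without KO mouse 1) and 0.23 to 0.73 for Slc25a12 (5 of 7).

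Of the 12 calls for KO against WT mice on vehicle, 9 were kept without slide 1. Slc25a26 then differed by 0.15 (adjusted p = 0.252), a smaller value, whereas Slc25a12 at 0.48 and Slc25a21 at 0.49 kept about their size but were not called (adjusted p = 0.0865 and 0.0915). A larger difference without slide 1 was found for 6 members, with -0.63 for Slc25a16, -0.60 for Slc25a42, -0.93 for Slc25a10, -0.66 for Slc25a13, -0.69 for Slc25a37 and -1.66 for Slc25a30. The remaining values were -4.60 for Slc25a34, -0.44 for Slc25a44 and -0.25 for Slc25a5. On fenofibrate KO against WT kept 16 of its 17 calls, at 0.81 to 1.13 times their size with slide 1.

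Cell type markers also differed between KO and WT mice, some lower and some higher. On fenofibrate 4 of 5 cholangiocyte markers were lower in KO mice, with a mean level of -2.53 to -1.97 against -1.68 to -0.70 in WT mice. Of 3 lymphocyte markers tested 2 were lower, with a mean level over the list of -2.40 to -2.01 in KO and -1.59 to -1.16 in WT mice. Cd8a was above background in no KO mouse, and in no LKO mouse either. In each WT and LWT group it was above background on at least 1 array, and on how many is not given here. On vehicle 1 of the 5 cholangiocyte and 2 of the 3 lymphocyte markers were lower in KO mice. Of 6 hepatocyte markers 2 were higher in KO mice under each treatment. Of 5 endothelial markers 2 were higher and 2 lower on vehicle, and 1 was higher on fenofibrate. Of 5 stellate cell markers 1 was lower under each treatment. Of 6 Kupffer cell markers 2 were higher on vehicle and 1 on fenofibrate, and 1 of 2 adipocyte markers was lower on fenofibrate. The part of these cells in the members' values was not tested.

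**Figure D2:**
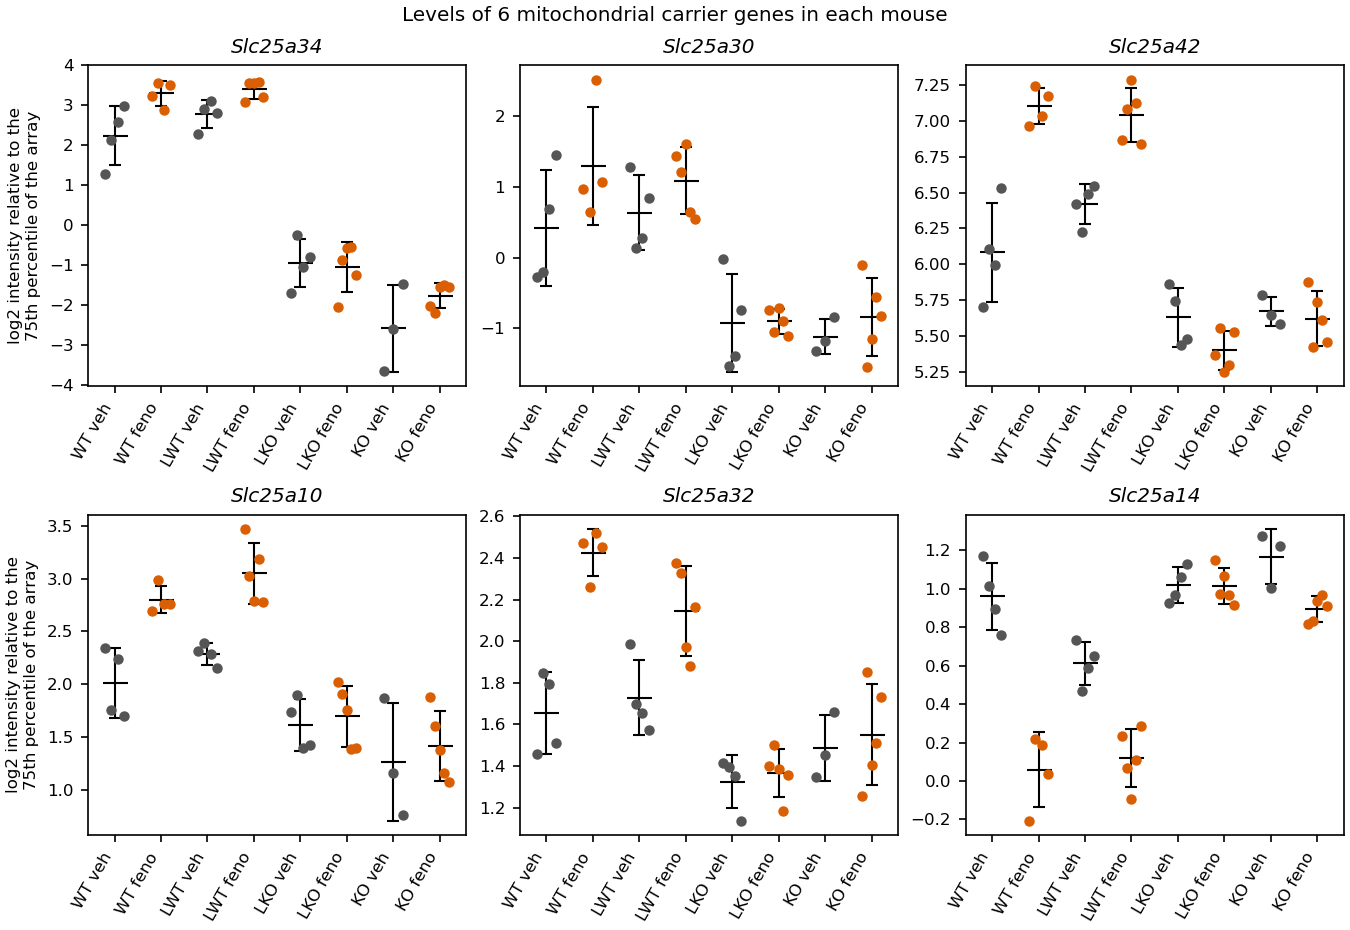
Level of each mouse in the 8 groups for 6 members, as log2 intensity minus that array's 75th percentile, with a bar at the group mean and whiskers of 1 SD, vehicle in grey and fenofibrate in orange. For Slc25a34 the highest knockout mouse, at -0.24, lies below the lowest control mouse, at 1.28.

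Among the carriers of coenzyme A and other cofactors, 7 of 8 listed genes were members. The other, Slc25a51, was measured but is not a member, as the array files list it under another name. No comparison called it, and on fenofibrate it differed by -0.39 ± 0.19 (adjusted p = 0.117) between LKO and LWT mice. Slc25a42 brings coenzyme A into the matrix in exchange for adenine nucleotides. Its level was 5.70, 6.11, 5.99 and 6.53 in WT mice on vehicle and 6.96, 7.24, 7.04 and 7.17 on fenofibrate. In LWT mice it was 6.42, 6.23, 6.49 and 6.55 on vehicle and 6.87, 7.08, 7.29, 7.13 and 6.84 on fenofibrate. In both lines every fenofibrate mouse stood above every vehicle mouse. In LKO mice it was 5.86, 5.74, 5.43 and 5.48 on vehicle and 5.37, 5.56, 5.25, 5.30 and 5.53 on fenofibrate, and in KO mice 5.78, 5.65 and 5.58 on vehicle and 5.88, 5.42, 5.73, 5.61 and 5.46 on fenofibrate. On fenofibrate all knockout mice lay below all control mice, while KO and WT mice overlapped on vehicle. Slc25a42 rose on fenofibrate by 1.02 ± 0.14 (2.03-fold, adjusted p = 1.99e-06) in WT and by 0.62 ± 0.13 (1.54-fold, adjusted p = 0.000932) in LWT mice. It was lower in LKO than LWT mice, with a difference of -0.79 ± 0.14 on vehicle (adjusted p = 0.000188) and on fenofibrate of -1.64 ± 0.12 (adjusted p = 6.35e-12). In KO against WT mice the difference was -0.41 ± 0.15 (adjusted p = 0.0338) on vehicle, a call that ended on leaving out any of KO mice 2 and 3 or WT mice 2 and 4 (-0.54 to -0.26) and that was -0.60 without slide 1, and -1.49 ± 0.13 (adjusted p = 1.18e-10) on fenofibrate.

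The fenofibrate effect itself differed between genotypes. For Slc25a42 it was larger by 0.85 ± 0.18 in LWT than LKO mice (adjusted p = 0.00312) and by 1.07 ± 0.20 in WT than KO mice (adjusted p = 0.000368). This test called 2 members between LWT and LKO mice, 5.26% against 6.70% of all genes, the other being Slc25a14. Between WT and KO mice it called 6 members, 15.8% against 11.0% of all genes, the others being Slc25a32, Slc25a26, Slc25a38, Slc25a14 and Slc25a29. The difference for Slc25a26, 0.58 ± 0.19, was 0.38 and still called without slide 1 (adjusted p = 0.0365). Its call was lost in 10 of 16 fits with 1 mouse left out (0.27 to 0.77). The second Slc25a26 probe differed by 0.80 ± 0.18 (adjusted p = 0.00565 over all probes). The call for Slc25a38, -0.35 ± 0.11, was lost in 7 of 16 fits with 1 mouse left out (-0.41 to -0.27).

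Slc25a32, a carrier of folate and FAD, had levels of 1.46, 1.85, 1.80 and 1.51 in WT mice on vehicle and 2.47, 2.26, 2.52 and 2.45 on fenofibrate. LWT mice had 1.99, 1.70, 1.66 and 1.57 on vehicle and 2.38, 2.33, 1.97, 1.88 and 2.16 on fenofibrate. The WT treatment groups did not overlap, and the LWT groups overlapped. LKO mice had 1.41, 1.40, 1.35 and 1.14 on vehicle and 1.40, 1.50, 1.38, 1.18 and 1.36 on fenofibrate, and KO mice had 1.35, 1.46 and 1.66 on vehicle and 1.26, 1.85, 1.41, 1.51 and 1.73 on fenofibrate. All knockout mice on fenofibrate lay below all control mice on fenofibrate. It rose by 0.77 ± 0.13 (1.71-fold, adjusted p = 3.91e-05) in WT and 0.42 ± 0.12 (adjusted p = 0.0149) in LWT mice, the second ending without LWT fenofibrate mouse 1 or LWT vehicle mouse 4 (0.36 to 0.50 over all mice left out). On fenofibrate it was lower in both knockouts, with differences of -0.78 ± 0.11 (adjusted p = 2.32e-06) for LKO against LWT and -0.88 ± 0.12 (adjusted p = 6.69e-07) for KO against WT mice. Its fenofibrate effect was larger in WT than KO mice by 0.71 ± 0.18 (adjusted p = 0.00955).

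Slc25a26, the carrier of S-adenosylmethionine, was lower in LKO than LWT mice on fenofibrate, with a difference of -0.47 ± 0.12 (adjusted p = 0.00189). Its second probe rose on fenofibrate by 0.44 in WT and 0.51 in LWT mice (adjusted p = 0.017 and 0.004 over all probes), where the brightest probe changed by 0.30 ± 0.13 and 0.34 ± 0.12 and was not called, though without slide 1 it was (0.34 in both lines, adjusted p = 0.0026 and 0.000964). The probes of Slc25a26 differed in KO against WT mice as well. On fenofibrate the second probe differed by -0.64 (adjusted p = 0.00011 over all probes), where the brightest differed by -0.17 ± 0.12 and was not called (-0.23, adjusted p = 0.0126, without slide 1). On vehicle the second differed by 0.16 (adjusted p = 0.428), where the brightest was called at 0.41.

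All 4 listed di- and tricarboxylate carriers were measured. Slc25a10, which exchanges malate or succinate for phosphate, had levels of 2.35, 1.76, 2.24 and 1.70 in WT mice on vehicle and 2.70, 2.99, 2.76 and 2.76 on fenofibrate. LWT mice had 2.32, 2.39, 2.29 and 2.15 on vehicle and 3.47, 3.03, 2.79, 3.18 and 2.78 on fenofibrate. Every fenofibrate mouse of either line was above every vehicle mouse of that line. LKO mice had 1.74, 1.90, 1.39 and 1.43 on vehicle and 2.03, 1.91, 1.76, 1.39 and 1.40 on fenofibrate, and KO mice 1.87, 1.16 and 0.77 on vehicle and 1.88, 1.61, 1.38, 1.16 and 1.07 on fenofibrate. The knockout mice on fenofibrate were all below the control mice on fenofibrate, and on vehicle KO and WT mice overlapped. Slc25a10 rose by 0.79 ± 0.21 (1.73-fold, adjusted p = 0.00569) in WT and 0.76 ± 0.19 (1.7-fold, adjusted p = 0.006) in LWT mice. On fenofibrate it was lower in both knockouts, with differences of -1.35 ± 0.18 (adjusted p = 7.83e-07) in LKO and -1.38 ± 0.19 (adjusted p = 1.08e-06) in KO mice.
On vehicle the Slc25a10 differences were -0.67 ± 0.21 (adjusted p = 0.0464) for LKO against LWT, a call kept in 1 of the 8 fits that left out 1 mouse (-0.77 to -0.60), and -0.74 ± 0.22 (adjusted p = 0.0117) for KO against WT, which ended without KO mouse 3 (-0.49) and was -0.93 without slide 1. Its fenofibrate effect was larger by 0.68 ± 0.28 in LWT than LKO mice (adjusted p = 0.144) and by 0.64 ± 0.29 in WT than KO mice (adjusted p = 0.172), neither called.

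Slc25a21, the oxodicarboxylate carrier of lysine and tryptophan breakdown, was higher in KO mice. WT mice had 1.08, 0.83, 0.83 and 0.54 on vehicle and 0.92, 0.73, 0.95 and 0.94 on fenofibrate, and KO mice had 1.67, 1.34 and 1.10 on vehicle and 1.43, 1.87, 1.44, 1.35 and 1.56 on fenofibrate. The KO and WT groups did not overlap under either treatment. The difference was 0.55 ± 0.19 on vehicle (adjusted p = 0.0268, 0.40 to 0.68 with 1 mouse left out, not called without KO mouse 1 or 2 or WT mouse 4, nor without slide 1) and 0.64 ± 0.16 on fenofibrate (adjusted p = 0.00205). For LKO against LWT mice it was 0.10 ± 0.17 on vehicle (adjusted p = 0.837) and 0.06 ± 0.15 on fenofibrate (adjusted p = 0.821). Slc25a11, the oxoglutarate-malate carrier, was lower in LKO mice on fenofibrate, with a difference of -0.27 ± 0.10 (adjusted p = 0.0344), with overlapping groups and a call lost in 6 of 10 fits with 1 mouse left out.

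Among adenine nucleotide and phosphate carriers, 7 of 8 listed genes were measured. Slc25a4, the heart and muscle form of the ADP/ATP exchanger, had levels of 2.39, 2.30, 2.22 and 2.20 in WT mice on vehicle and 2.96, 2.47, 2.55 and 2.58 on fenofibrate. LWT mice had 2.32, 2.48, 2.34 and 2.41 on vehicle and 2.92, 2.75, 3.28, 2.55 and 3.01 on fenofibrate, and in neither line did the treatments overlap. It rose by 0.36 ± 0.12 (adjusted p = 0.0312) in WT, a call lost in 4 of 8 fits with 1 mouse left out (0.25 to 0.42), and 0.52 ± 0.11 (adjusted p = 0.00179) in LWT mice. It was lower in LKO than LWT mice on fenofibrate, with a difference of -0.63 ± 0.11 (adjusted p = 3.01e-05), and the KO against WT difference of -0.26 ± 0.11 was not called (adjusted p = 0.0682). Slc25a5, the widely expressed exchanger, rose by 0.34 ± 0.09 (adjusted p = 0.00634) in WT mice, and without slide 1 by 0.25. On fenofibrate Slc25a5 was lower, with differences of -0.41 ± 0.08 (adjusted p = 0.000122) in LKO and -0.43 ± 0.08 (adjusted p = 0.00012) in KO mice. The second Slc25a5 probe went the same way, with 0.53 ± 0.39 for fenofibrate in WT, -0.60 ± 0.42 for KO against WT on vehicle, and -0.32 ± 0.35 for LKO and -0.74 ± 0.37 for KO mice on fenofibrate (SE), none called, its errors being larger. The phosphate carrier Slc25a3 was lower there too, with differences of -0.22 ± 0.08 and -0.24 ± 0.09 (adjusted p = 0.0345 and 0.0259), and leaving out 1 mouse ended the first call in 7 of 10 fits and the second in 2 of 9. Its second probe had -0.21 in LKO mice, much the same value, and -0.12 in KO mice, neither called (adjusted p = 0.0833 and 0.35 over all probes). Slc25a41, an ATP-Mg/phosphate carrier kept through the KO vehicle group alone, was near background, above it in 4 of 5 KO and 2 of 4 WT mice on fenofibrate, where the difference was 0.90 ± 0.29 (adjusted p = 0.0143) with overlapping groups. The Slc25a41 difference was 0.32 in the deposited log2 table and 0.36 with normexp, and the call ended without WT mouse 1 or 3. Slc25a25 of the same type differed by 0.64 ± 0.26 between KO and WT mice on fenofibrate (adjusted p = 0.0441). Without slide 1 it was 0.52 (adjusted p = 0.0632), and the call was lost in 6 of 9 fits with 1 mouse left out.

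Of the 10 listed amino acid and glutathione carriers 9 were measured. Slc25a29 carries basic amino acids. Its level was 0.27, 0.53, 0.18 and 0.42 in WT mice on vehicle and -0.21, -0.07, -0.42 and -0.11 on fenofibrate. In LWT mice it was 0.10, 0.35, 0.45 and 0.40 on vehicle and -0.14, -0.22, -0.15, -0.10 and -0.28 on fenofibrate. All fenofibrate mice of both lines were below the vehicle mice of their line. In LKO mice it was 0.14, 0.40, 0.61 and 0.61 on vehicle and 0.48, 0.40, 0.56, 0.49 and 0.28 on fenofibrate, and in KO mice 0.23, 0.04 and 0.74 on vehicle and 0.93, 0.41, 0.64, 0.75 and 0.89 on fenofibrate. On fenofibrate the knockout mice were all higher than the controls. Slc25a29 fell, with changes of -0.55 ± 0.13 (adjusted p = 0.00237) in WT and -0.50 ± 0.12 (adjusted p = 0.00401) in LWT mice, and on fenofibrate it was higher by 0.62 ± 0.12 (adjusted p = 8.52e-05) in LKO and 0.92 ± 0.12 (adjusted p = 4.05e-07) in KO mice. The fenofibrate effect differed between WT and KO mice by -0.94 ± 0.19 (adjusted p = 0.000933), with -0.50 ± 0.17 between LWT and LKO mice not called (adjusted p = 0.0797).

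Slc25a13 and Slc25a12 are the paired aspartate-glutamate carriers of the malate-aspartate shuttle, Slc25a13 (citrin) being the form known for liver. Slc25a13 had levels of 5.79, 5.84, 5.84 and 5.95 in WT and 5.54, 5.21 and 5.22 in KO mice on vehicle. LWT mice had 6.11, 6.04, 6.11 and 6.01 and LKO mice 5.56, 5.58, 5.65 and 5.42 on vehicle, and neither pair of groups overlapped. On fenofibrate the levels were 5.93, 5.85, 5.88 and 5.89 in WT, 5.47, 5.70, 5.36, 5.34 and 5.45 in KO, 6.17, 6.27, 5.86, 6.08 and 6.14 in LWT and 5.46, 5.56, 5.44, 5.48 and 5.53 in LKO mice, again without overlap between a knockout and its control. Slc25a13 was lower in LKO than LWT mice, with differences of -0.52 ± 0.08 (adjusted p = 7.36e-05) on vehicle and -0.61 ± 0.07 (adjusted p = 1.27e-07) on fenofibrate. For KO against WT mice the differences were -0.53 ± 0.09 on vehicle (adjusted p = 5.21e-05, 0.117 with the replicate block, and -0.66 without slide 1) and -0.42 ± 0.08 on fenofibrate (adjusted p = 6.66e-05). Fenofibrate changed it by 0.03 ± 0.08 in WT and 0.03 ± 0.08 in LWT mice, not called (adjusted p = 0.829 and 0.832). Slc25a12 had levels of 2.22, 2.07, 2.08 and 2.00 in WT and 3.16, 2.79, 2.92, 3.14 and 2.40 in KO mice on fenofibrate. All these KO mice were higher, by 0.79 ± 0.15 (adjusted p = 0.000104), with 0.26 ± 0.14 in LKO against LWT mice (adjusted p = 0.174).

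Slc25a22, a glutamate carrier, had levels of 2.83, 2.82, 3.47 and 2.97 in LWT and 1.64, 2.06, 1.80 and 2.37 in LKO mice on vehicle. On fenofibrate LWT mice had 2.47, 2.95, 2.98, 3.23 and 3.33 and LKO mice 1.39, 1.52, 1.63, 2.11 and 1.76. LKO mice were below LWT mice throughout. The difference was -1.31 ± 0.45 on fenofibrate (adjusted p = 0.0228; 0.0508 without LWT mouse 5) and -1.06 ± 0.51 on vehicle (adjusted p = 0.284). WT mice had 0.15, 2.58, 2.87 and 2.46 on vehicle and KO mice -0.04, 2.74 and 3.18, and on fenofibrate WT mice had 2.63, 3.21, 2.87 and 2.65 and KO mice 0.77, 1.66, 2.66, 2.35 and 2.10. The lowest mouse of each of WT vehicle, KO vehicle and KO fenofibrate was the one on slide 1. Without slide 1 the LKO difference on vehicle was -1.06 (adjusted p = 0.00153) and the KO difference on fenofibrate -0.65 (adjusted p = 0.0157), against -0.93 ± 0.48 (adjusted p = 0.12) with it. The branched-chain amino acid carrier Slc25a44 had its lowest WT vehicle mouse on slide 1 as well. Its KO against WT difference on vehicle was -0.48 ± 0.18 (adjusted p = 0.0402), and -0.44 without slide 1. With 1 mouse left out it was -0.65 to -0.28, called in 2 of 7 such fits. The second Slc25a44 probe differed by -0.36 ± 0.12 (adjusted p = 0.0319 over all probes).

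**Figure D3:**
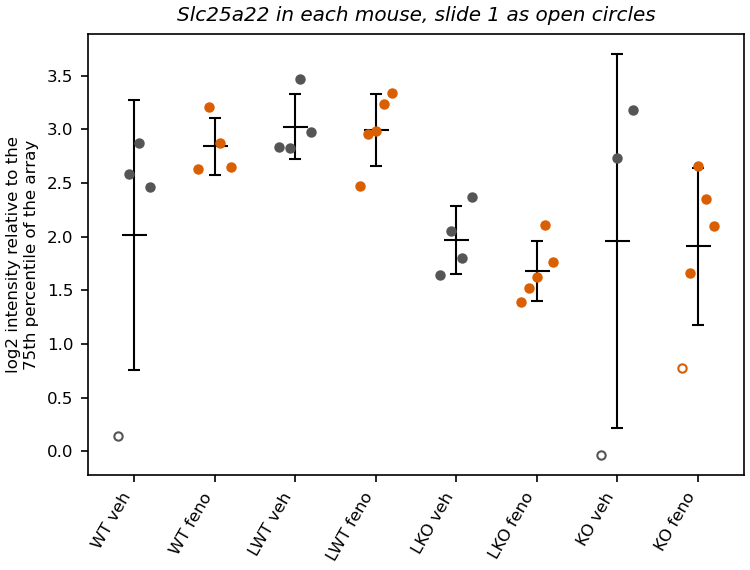
Slc25a22 level of each mouse in the 8 groups, as log2 intensity minus that array's 75th percentile, with the 3 arrays of slide 1 drawn as open circles. The slide 1 mice sit at 0.15, -0.04 and 0.77, the lowest of their groups.

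Slc25a38, a glycine carrier needed for haem synthesis, was higher in both knockouts on fenofibrate, by 0.30 ± 0.07 (adjusted p = 0.00062) in LKO and 0.20 ± 0.07 (adjusted p = 0.0215) in KO mice, the second lost without KO mouse 2 or WT mouse 1 or 3. In WT mice it fell on fenofibrate, with a change of -0.22 ± 0.07 (adjusted p = 0.0313) that was called in 3 of 8 fits with 1 mouse left out (-0.24 to -0.21). Both iron carriers, the mitoferrins, were measured. Slc25a28 (mitoferrin 2) was higher in LKO by 0.34 ± 0.08 (adjusted p = 0.00144) and in KO mice by 0.36 ± 0.09 (adjusted p = 0.0012) on fenofibrate. Slc25a37 (mitoferrin 1) differed by -0.60 ± 0.17 (adjusted p = 0.01) between KO and WT mice on vehicle, and the call ended without KO mouse 3 (-0.42), was -0.69 without slide 1, and was absent in the second probe (-0.12, adjusted p = 0.634 over all probes). Mitoferrin 1 is known for red cell formation, and both red blood cell markers measured were higher in KO than WT mice on fenofibrate (mean level 2.40 to 3.52 against 1.63 to 1.72), where Slc25a37 differed by -0.25 ± 0.15 (adjusted p = 0.202). The part of blood cells in these values was not tested.

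The pair of Slc25a37 probes disagreed. The second probe lies at chr14:69902797-69902856 (mm9, minus strand) and the brightest at chr14:69860020-69860079. The second probe had -1.84, -2.33, -2.19 and -2.60 in WT and -2.26, -2.50 and -2.31 in KO mice on vehicle, and -2.44, -2.31, -2.41 and -1.95 in WT and -2.21, -2.45, -2.90, -2.57 and -2.75 in KO mice on fenofibrate. It had 0.03, -0.13, -0.04 and 0.18 in LWT and 0.13, -0.29, -0.30 and -0.06 in LKO mice on vehicle, and 0.42, 0.07, 0.34, 0.31 and 0.12 in LWT and 0.05, 0.06, 0.00, -0.16 and -0.24 in LKO mice on fenofibrate. All 16 WT and KO mice were below all 18 LWT and LKO mice. Every mouse is labelled C57Bl/6J, and the labels do not settle whether the lines differ otherwise in their genetic background. Between vehicle-treated WT and LWT mice the second probe differed by -2.25 ± 0.15 (SE, adjusted p = 6.16e-11 over all probes) and the brightest by 0.26 ± 0.16 (adjusted p = 0.557).

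All 3 carriers related to the uncoupling proteins were measured. Slc25a30 had levels of -0.27, -0.20, 0.69 and 1.46 in WT and -1.32, -1.18 and -0.85 in KO mice on vehicle. On fenofibrate WT mice had 0.97, 0.64, 2.52 and 1.07 and KO mice -0.10, -1.54, -1.15, -0.56 and -0.82. The KO mice were below the WT mice in each treatment. LWT mice had 1.29, 0.14, 0.28 and 0.84 on vehicle and 1.43, 1.21, 1.61, 0.65 and 0.55 on fenofibrate, and LKO mice -0.02, -1.53, -1.39 and -0.74 on vehicle and -0.75, -1.05, -0.71, -0.89 and -1.11 on fenofibrate. Here too the knockout mice were all lower. Slc25a30 was lower, with differences of -1.56 ± 0.39 (adjusted p = 0.0119) in LKO and -1.53 ± 0.42 (adjusted p = 0.00687) in KO mice on vehicle, the former not called without LKO mouse 2 or LWT mouse 1 (-1.86 to -1.34 over all mice left out). On fenofibrate the differences were -1.99 ± 0.35 (adjusted p = 4.21e-05) and -2.13 ± 0.37 (adjusted p = 2.80e-05). Fenofibrate itself changed it by 0.88 ± 0.39 in WT and 0.45 ± 0.37 in LWT mice, not called (adjusted p = 0.113 and 0.453).

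Slc25a14 is also known as UCP5. Its level was 1.17, 1.01, 0.89 and 0.76 in WT mice on vehicle and -0.21, 0.22, 0.19 and 0.04 on fenofibrate. LWT mice had 0.73, 0.47, 0.59 and 0.65 on vehicle and 0.23, 0.07, -0.10, 0.11 and 0.29 on fenofibrate. In both lines all fenofibrate mice were lower. LKO mice had 0.92, 0.96, 1.06 and 1.13 on vehicle and 1.15, 0.97, 1.06, 0.97 and 0.91 on fenofibrate, and KO mice 1.27, 1.00 and 1.22 on vehicle and 0.81, 0.83, 0.94, 0.97 and 0.91 on fenofibrate. On fenofibrate all knockout mice were above all controls. Slc25a14 fell, with changes of -0.90 ± 0.10 (adjusted p = 6.31e-08) in WT and -0.49 ± 0.09 (adjusted p = 0.000273) in LWT mice, and was higher on fenofibrate by 0.89 ± 0.09 (adjusted p = 1.71e-09) in LKO and 0.83 ± 0.09 (adjusted p = 1.48e-08) in KO mice. The fenofibrate effect differed by -0.48 ± 0.13 between LWT and LKO mice (adjusted p = 0.0205; -0.53 to -0.43 with 1 mouse left out, not called without LKO vehicle mouse 1) and by -0.63 ± 0.14 between WT and KO mice (adjusted p = 0.00304). On vehicle Slc25a14 was higher in LKO than LWT mice by 0.41 ± 0.10 (adjusted p = 0.00694, and 0.0646 with the replicate block).

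**Figure D4:**
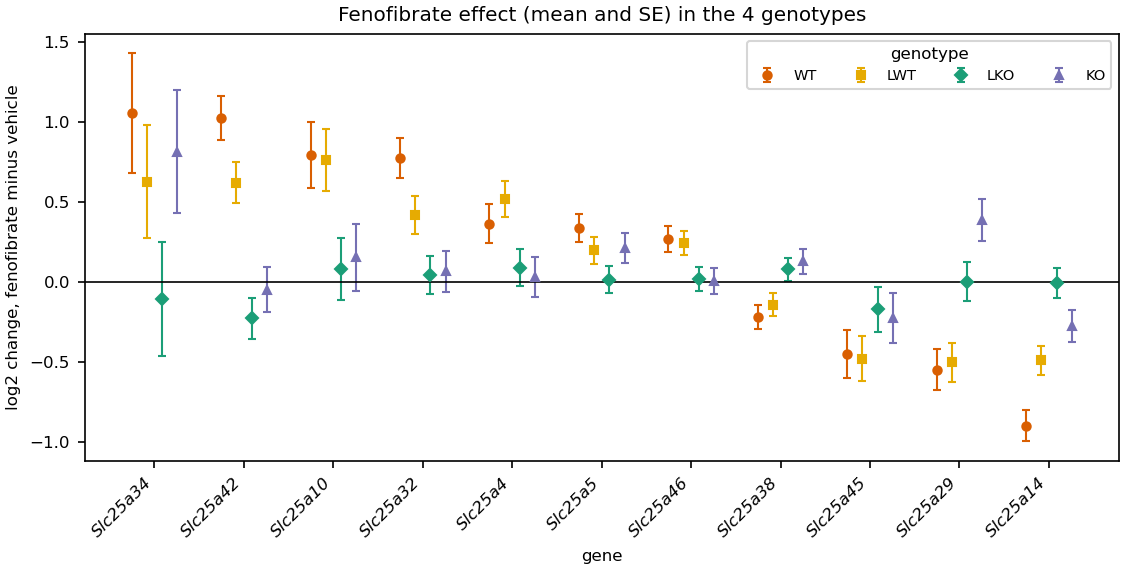
Log2 change on fenofibrate, with its SE as the whisker, of members called for it in WT or LWT mice, with 1 symbol for each of the 4 genotypes. Slc25a42 rises by 1.02 in WT and 0.62 in LWT mice, Slc25a14 falls by 0.90 in WT and by 0.49 in LWT mice, and no change in the LKO or KO mice is called.

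Of the 9 listed members of unsettled or other function 6 were measured. Slc25a34 had levels of 1.28, 2.13, 2.58 and 2.98 in WT mice on vehicle and 3.22, 3.56, 2.89 and 3.52 on fenofibrate. LWT mice had 2.28, 2.90, 3.11 and 2.80 on vehicle and 3.08, 3.55, 3.57, 3.58 and 3.20 on fenofibrate. The treatments overlapped in both lines. LKO mice had -1.68, -0.24, -1.05 and -0.79 on vehicle and -2.04, -0.86, -0.56, -0.55 and -1.23 on fenofibrate, and KO mice -3.64, -2.60 and -1.47 on vehicle and -2.01, -2.18, -1.54, -1.49 and -1.55 on fenofibrate. Every knockout mouse was below every mouse with intact Ppara. On vehicle Slc25a34 was lower, with differences of -3.72 ± 0.37 (13.1-fold, adjusted p = 2.41e-08) in LKO and -4.81 ± 0.40 (28.1-fold, adjusted p = 2.53e-10) in KO mice. On fenofibrate the differences were -4.45 ± 0.33 (21.8-fold, adjusted p = 8.20e-12) and -5.05 ± 0.35 (33.2-fold, adjusted p = 1.16e-12). All 4 calls held under every alternative run.

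The rise of Slc25a34 on fenofibrate in WT mice, 1.05 ± 0.37 (adjusted p = 0.0424), was less firm. It was 0.73 and not called without slide 1, and leaving out 1 mouse gave 0.73 to 1.30, with the call lost without WT vehicle mouse 1 or 2 or WT fenofibrate mouse 1, 2 or 4. The changes of 0.62 ± 0.35 in LWT (95% interval -0.10 to 1.35) and 0.81 ± 0.39 in KO mice (0.02 to 1.60) were not called (adjusted p = 0.245 and 0.408). Its fenofibrate effect differed by 0.24 ± 0.54 between WT and KO mice (adjusted p = 0.829) and by 0.73 ± 0.50 between LWT and LKO mice (adjusted p = 0.468), neither called.

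Slc25a47, a carrier enriched in liver, had levels of 8.73, 8.73, 8.63, 8.97 and 8.88 in LWT and 7.74, 8.29, 8.10, 8.24 and 8.29 in LKO mice on fenofibrate. All LKO mice were lower, with a difference of -0.66 ± 0.13 (adjusted p = 0.000138). KO mice had 8.64, 8.21, 8.57, 8.89 and 8.71 and WT mice 8.56, 8.80, 8.44 and 8.55, a difference of 0.02 ± 0.13 (95% interval -0.26 to 0.29, adjusted p = 0.931). Whether these 2 differences differ from each other was not tested. Slc25a46, an outer membrane protein of mitochondrial shape, rose on fenofibrate by 0.27 ± 0.08 in WT and 0.24 ± 0.08 in LWT mice (adjusted p = 0.0173 and 0.027), but its second probe changed by 0.12 and 0.09 (adjusted p = 0.64 and 0.742). On fenofibrate Slc25a46 was lower, with differences of -0.44 ± 0.07 in LKO and -0.47 ± 0.08 in KO mice (adjusted p = 1.82e-05 and 1.04e-05), and its second probe by -0.58 and -0.35 (adjusted p = 0.00097 and 0.0456 over all probes). Slc25a45 had levels of 2.02, 1.93, 2.07 and 1.75 in LWT mice on vehicle and 1.50, 1.42, 1.73, 1.26 and 1.40 on fenofibrate, without overlap. It fell there, with a change of -0.48 ± 0.14 (adjusted p = 0.0176, lost without LWT vehicle mouse 3), and the change was -0.45 ± 0.15 in WT mice (adjusted p = 0.0301; -0.34 and not called without slide 1, and lost in 5 of 8 fits with 1 mouse left out).

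Genes that work beside the carriers were listed by role. The alternative fits, among them those without slide 1, were followed for members only and are not given for these genes. Of 12 measured genes for the import of carriers into the inner membrane, 6 rose on fenofibrate in WT mice (Timm8a1, Timm9, Timm10, Timm22, Tomm40 and Tomm70a) and 4 in LWT mice, beside 10.0% and 9.96% of all genes, and 0 were called in LKO or KO mice. On vehicle 4 of the 12 were lower in LKO than LWT and 6 in KO than WT mice, beside 4.26% and 16.1% of all genes. On fenofibrate 8 and 9 were lower, beside 18.1% and 21.9% of all genes, with differences for the translocase Timm22 of -0.38 ± 0.07 and -0.67 ± 0.08 (SE) and for the chaperone Timm9 of -0.77 ± 0.10 and -1.13 ± 0.11 (SE). The median difference over these 12 genes was -0.40 in LKO and -0.48 in KO mice. The uncoupling proteins, carriers of the same family under other names, rose in both lines with intact Ppara. Ucp2 rose by 1.89 ± 0.25 (SE) in WT and 1.74 ± 0.23 (SE) in LWT mice, and Ucp3, known for muscle, by 1.97 ± 0.27 and 1.85 ± 0.26 (SE). In LKO and KO mice fenofibrate changed Ucp2 by 0.11 ± 0.23 and -0.07 ± 0.25 and Ucp3 by 0.19 ± 0.26 and -0.03 ± 0.28 (SE), none called. On vehicle, in a comparison that used arrays of slide 1, Ucp2 was higher in KO than WT mice by 1.11 ± 0.27 and Ucp3 by 1.18 ± 0.29 (SE). Macrophages hold Ucp2, and 2 of the 6 Kupffer cell markers were higher in the same comparison, with a mean level over the 6 markers of 2.65 to 4.97 in KO and 2.39 to 2.96 in WT mice. None of the skeletal muscle markers was above background on all arrays. The part of these cells in the Ucp2 and Ucp3 values was not tested.

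Of 20 measured other mitochondrial membrane transporters, 5 rose on fenofibrate in both WT and LWT mice (among them Mpc1, Mpc2, Abcb8 and Tspo) and 1, Abcb10, fell, with 0 called in LKO or KO mice. Of all genes 10.0% rose and 11.3% fell on fenofibrate in WT mice, and 9.96% rose and 7.83% fell in LWT mice. The share of all genes called in both lines was not counted. The pyruvate carrier subunit Mpc2 rose by 0.27 ± 0.09 in WT and 0.34 ± 0.09 in LWT mice (SE). On fenofibrate 10 of the 20 were lower and 1, Abcb10, higher in LKO than LWT mice, and 10 were lower and 0 higher in KO than WT mice, beside 18.1% and 21.9% of all genes lower, with a median of -0.26 and -0.29. Of 13 listed enzymes of the malate-aspartate and citrate shuttles and neighbouring steps, 4 rose and 3 fell on fenofibrate in WT mice and 5 rose and 1 fell in LWT mice. The shares of all genes given above for fenofibrate in each line apply here too. Gpd2, the mitochondrial glycerol-3-phosphate dehydrogenase, which faces the space between the membranes, rose by 1.46 ± 0.12 and 0.87 ± 0.11 (SE). Mdh2, the mitochondrial malate dehydrogenase, rose by 0.30 ± 0.08 and 0.35 ± 0.07 (SE), and the cytosolic aspartate aminotransferase Got1 fell, with changes of -0.70 ± 0.18 and -0.67 ± 0.17 (SE). On fenofibrate 7 of the 13 were lower in LKO and 8 in KO mice than in controls, and 2 were higher in each. Of all genes 18.1% were lower and 18.2% higher in LKO mice, and 21.9% lower and 21.2% higher in KO mice.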

How the data were processed

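The values are spot intensities that the authors deposited as 1-colour scanner output of Agilent Feature Extraction 10.10.1.1, per the submitters' processing notes and the file headers, with background already subtracted by that program. Each array held RNA of 1 liver from an individual mouse, per the series' design text. The number of arrays limits the precision. A table of log2 values for 32446 probes, also deposited by the authors, has a median of 7.63 in every column, correlated with the scanner values at r of 0.980 to 0.991 and served as an alternative; the sources used here do not give its exact normalization.

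From the intensity, log2 was taken after outlier-flagged spots were left out, spots of a probe were averaged and the array's 75th percentile was subtracted. Probes were used if, in 1 group or more, all arrays had them well above background. Each gene was taken at its brightest probe, which left 16075 genes, and all 8 groups entered 1 limma fit (version 3.58.1, R 4.3.3), moderated by eBayes, with two-sided tests and Benjamini-Hochberg adjustment over all genes. Probes were named through the RefSeq table of GRCm38.p6 by accession (27235 probes) or symbol; probe positions are those of the array files, in mm9. The fit was tested on simulated data. Some items are not reported here, though the counts of members and listed genes include them.

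Members, gene lists and tests were chosen with earlier results of these data known. Every member could be named, and values by mouse were given mainly for members among the 8 largest called changes of a comparison. Same-numbered vehicle mice deviated together in LKO and LWT (r 0.120 to 0.291), KO and WT (0.123 to 0.403) and WT and LWT mice (0.104 to 0.234). The replicate number was therefore also fitted as a block, always on the compared groups alone, without the other arrays. In other comparisons of 2 groups the lowest r did not exceed 0.1, and the mice were not taken as paired. The pairing comes from the data, as the labels give only the number, and mice of different numbers were not compared. Of the LKO and LWT pairs 3 of 4 lay on 1 slide, of the KO and WT pairs 1 of 3, and of the WT and LWT pairs 3 of 4. For the LKO and LWT pairs and the WT and LWT pairs, a shared number and a shared slide therefore mostly go together. Most KO and WT pairs lay on different slides, and their lowest r was 0.123. The parts of number and slide were not tested. Alternatives were normexp background correction, quantile scaling, the deposited log2 table, other filters on dim probes, other probes, the slide as a block, the groups alone and leaving out mice or slide 1. The series text gives 36 samples, of which the 34 listed here were analysed.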

Additional observations from a re-analysis of the deposited data

Results flagged for a closer look

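Among 119 sets of 4 or 5 mice of a group, 3 held a mouse far from the others, and chance gives about 1 in 20. Slc25a22 was 0.15 in WT vehicle mouse 1, where the other mice had 2.46 to 2.87, and Slc25a44 was 1.02 in the same mouse, where the others had 1.65 to 1.70. That array is on slide 1, which correlated least with its group. Slc25a21 was 0.73 in WT fenofibrate mouse 2 against 0.92 to 0.95.

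The fenofibrate effect differed between genotypes for 6 members by the test of the difference itself. Between WT and KO mice, in log2 units, it differed for Slc25a42 by 1.07, for Slc25a32 by 0.71, for Slc25a26 by 0.58, for Slc25a38 by -0.35, for Slc25a14 by -0.63 and for Slc25a29 by -0.94. Between LWT and LKO mice it differed for Slc25a42 by 0.85 and for Slc25a14 by -0.48. The Slc25a26 difference was 0.27 to 0.77 with 1 mouse left out and lost its call in 10 of 16 such fits. Its second probe differed by 0.80 (adjusted p = 0.00565 over all probes). The Slc25a38 difference was -0.41 to -0.27 with 1 mouse left out and lost its call in 7 of 16.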

How the results depend on the processing

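Of 83 calls of members, the deposited log2 table kept 71, normexp 76, quantile scaling 76, no filter on dim probes 67, all probes in 1 fit 80, the replicate block 52, the groups compared alone 65, the slide as a block 72, the slide as a random block 81 and the fits without slide 1 77, and no call changed its direction in these fits. With the second probe of a gene, 5 of 16 calls were kept. In the fits that left out 1 mouse, 52 calls were kept throughout and 31 ended at least once. The fenofibrate effect between LWT and LKO mice called 1 member in the deposited table and 4 with the groups compared alone, and between WT and KO mice 10 members without slide 1. KO against WT mice on vehicle called 3 members with the groups compared alone. Leaving out 1 mouse gave 7 to 12 members for fenofibrate in WT (7 without WT fenofibrate mouse 1), 6 to 9 for it in LWT mice, 0 to 0 for LKO mice and 0 to 1 for KO mice. It gave 5 to 6 for LKO against LWT and 7 to 13 for KO against WT mice on vehicle (7 without KO mouse 3 or WT mouse 4), 17 to 19 and 14 to 18 on fenofibrate, and 0 to 1 for WT against LWT mice. For the differences of the fenofibrate effect it gave 1 to 3 (LWT and LKO; 1 without LKO vehicle mouse 1), 4 to 10 (WT and KO; 10 without KO vehicle mouse 1) and 0 to 0 (WT and LWT). The replicate block pairs same-numbered mice and was fitted on the compared groups alone. It called 6 members for LKO against LWT and 2 for KO against WT mice on vehicle, where same-numbered mice deviated together. For the remaining counts same-numbered mice were not taken as paired. There the block called 5 for fenofibrate in WT and 7 in LWT mice, and 20 and 15 for LKO and KO on fenofibrate. It called 7 and 1 for the fenofibrate effect of LWT less LKO and WT less KO mice. The shares of all genes called in these alternative fits are not given here, so the shifts are not read as a trait of the members. The cause of these shifts was not tested. Spot brightness near background limits Slc25a41, Slc25a18 and Slc25a35.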
